A study of Mus musculus with 20 samples.

Results

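Gdpd3, Adcy1, Rasl10b, Sdc4, Cap1, Pam, Rab6b, Rnf157 and Xaf1 were genes whose array signal in the mouse aorta set the mice of one experiment apart from the mice of another. They were 9 of the 18193 genes with a probe set annotated to 1 symbol, and all 20 of their probe sets are described here. They had been chosen by the measured signals themselves, selected on the gap between the arrays of the P465L experiment and those of the rosiglitazone experiment, so this gap is given as a description without a test. Tests are given only for comparisons inside each experiment.

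The series measured messenger RNA of whole aortas on 20 Affymetrix mouse GeneChip arrays, each hybridized with biotin-labelled RNA pooled from 8 aortas. In the P465L experiment, 3 arrays held adult mice with a P465L mutation of PPARγ knocked into the endogenous locus, labelled dominant negative, and 3 held their wild-type littermates, all on standard chow. In the rosiglitazone experiment, adult mice labelled C57, and C57BL/6J in the design text, ate chow alone (3 arrays) or chow with rosiglitazone, a drug that activates PPARγ. The drug groups were 3 mg/kg/day for 2 days (3 arrays) and for 14 days (3 arrays), and 10 mg/kg/day for 2 days (3 arrays) and for 14 days (2 arrays). The labels gave no strain for the P465L mice and littermates, and no age in weeks, sex, hybridization date or litter for any group. Experiment, cohort, strain background and any array batch therefore cannot be told apart in what follows. A replicate was a pool, so the p-values measure spread between pools and not between mice, and in whole vessel RNA fewer cells of a type and less RNA per cell cannot be told apart.

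The 9 genes do not belong to one pathway. Gdpd3 makes lysophosphatidic acids from lysophospholipids, Adcy1 makes the second messenger cAMP when calcium and calmodulin bind it, and Rasl10b is a small Ras-like GTPase. Sdc4 is a heparan sulfate proteoglycan at cell adhesions, Cap1 recycles actin monomers, Pam amidates the ends of secreted peptides such as adrenomedullin, and Rab6b directs vesicles at the Golgi. Rnf157 is a RING ubiquitin ligase, and Xaf1 is an interferon-induced partner of the apoptosis inhibitor Xiap.

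The bases just upstream of 4 of these genes are shown because the experiments act on a nuclear receptor and because Xaf1 belongs to the interferon response. The 4 include all 3 genes in which the half-site described next was found, so they do not show how common it is. Each run gives the 250 bases before the RefSeq transcription start in GRCm38.p6, 5′ to 3′ on the gene's strand. Capitals mark AGGTCA, the half-site that nuclear receptors such as PPARγ bind as a repeat. The runs lie at chr7:126766164-126766413 on the plus strand (Gdpd3), chr11:7063183-7063432 on the plus strand (Adcy1), chr2:164443189-164443438 on the minus strand (Sdc4) and chr11:72301379-72301628 on the plus strand (Xaf1). For Xaf1 the start in the promoter table lies inside the gene span given further on, so its run reaches into that span.
Gdpd3: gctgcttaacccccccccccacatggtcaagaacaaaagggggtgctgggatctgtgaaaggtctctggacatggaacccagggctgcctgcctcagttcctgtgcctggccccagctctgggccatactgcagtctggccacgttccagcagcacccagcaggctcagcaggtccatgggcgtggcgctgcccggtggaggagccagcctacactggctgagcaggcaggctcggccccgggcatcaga
Adcy1: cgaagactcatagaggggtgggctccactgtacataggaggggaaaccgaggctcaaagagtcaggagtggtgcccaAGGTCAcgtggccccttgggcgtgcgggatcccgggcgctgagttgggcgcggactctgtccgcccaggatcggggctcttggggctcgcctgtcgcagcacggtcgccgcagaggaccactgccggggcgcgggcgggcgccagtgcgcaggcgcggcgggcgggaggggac
Sdc4: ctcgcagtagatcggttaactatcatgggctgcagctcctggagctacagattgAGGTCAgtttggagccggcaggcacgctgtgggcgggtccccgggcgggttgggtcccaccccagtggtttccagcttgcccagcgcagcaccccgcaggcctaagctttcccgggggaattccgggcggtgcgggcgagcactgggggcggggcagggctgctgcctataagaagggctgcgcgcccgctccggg
Xaf1: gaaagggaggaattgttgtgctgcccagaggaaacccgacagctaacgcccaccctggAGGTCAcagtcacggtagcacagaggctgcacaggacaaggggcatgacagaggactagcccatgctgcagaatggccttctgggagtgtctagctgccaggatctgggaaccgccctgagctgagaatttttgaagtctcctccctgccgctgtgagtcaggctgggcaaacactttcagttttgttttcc
AGGTCA, searched on both strands, began 173 bases before the start of Adcy1, 196 before that of Sdc4 and 192 before that of Xaf1. It was in 3 of the 8 genes with a promoter entry, and in 14% of the 32851 promoters in the table. The direct repeat AGGTCANAGGTCA was in 0 of the 8 genes and in 0.0335% of promoters. A further motif, GAAANGAAA, which resembles the elements of interferon-stimulated genes, was found 10 bases after the start of Xaf1 in a 300-base window and in 3.17% of promoters. Its surroundings at chr11:72301633-72301653 on the plus strand, with the motif in capitals, are given next.
Xaf1: tgcaaaGAAACGAAActccac
GAAANNGAAA was in 0 of the 8 genes and in 3.44% of promoters. The motifs were picked after the sequences had been seen, and a match describes letters, not a bound site.

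The arrays shared a 2% trimmed mean of 1500, their median signals lay between 321.3 and 450.7, and replicate arrays had a Pearson's r of 0.961 to 0.986 across the tested probe sets. Smooth muscle markers were high in both experiments, with Acta2 (1416454_s_at) at 108570 to 149486 in the 6 arrays of the P465L experiment and 100906 to 164875 in the other 14. Wild-type pool B stood apart: the summed signal of 10 skeletal muscle markers was 76656 there, 24510 and 13820 in the other wild-type pools, 46460, 8123 and 3912 in P465L pools A, B and C, and 2070 to 29252 in the rosiglitazone experiment. The same pool had the highest summed interferon genes (83790, against 31444 to 45668 in the rosiglitazone experiment), liver markers (9734) and red blood cell markers (101902). That interferon sum came mostly from 1 gene, Rsad2 (1436058_at). Its signal reached 56355 in the P465L experiment, more than the whole interferon sum of any other pool. In the rosiglitazone experiment it was 3334 to 13664. Several results that include wild-type pool B are therefore given with and without it. The differences between littermates and chow controls, and the medians of the marker lists, are given only with it.

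Across the 20 probe sets, 8 were higher and 12 lower in the P465L experiment, on the scale of log2 of signal plus 72 used for every log2 value below. In 12 of the 20, no array of one experiment overlapped an array of the other. Among the 13 that were bright enough to be tested (mean log2 value of at least 8.73), 11 did not overlap, 7 were higher and 6 lower. Of all 19370 tested probe sets, 3.46% did not overlap. The choice of the genes fixed this contrast, and nothing is read from these counts. The brightness threshold applied to the mean of all 20 arrays. Gdpd3 (8.15) and Xaf1 by 1443621_at (8.39) were below it in the rosiglitazone experiment, and Rab6b by 1434914_at (7.80), Rasl10b (8.01) and Rnf157 by 1434427_a_at (8.07) in the P465L experiment, so each was tested only through the experiment in which it was high. Among all tested probe sets the median difference was -0.01 and the 5th to 95th percentiles ran from -0.47 to 0.46, and 159 differed by at least 1 on the log2 scale.

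**Figure D1:**
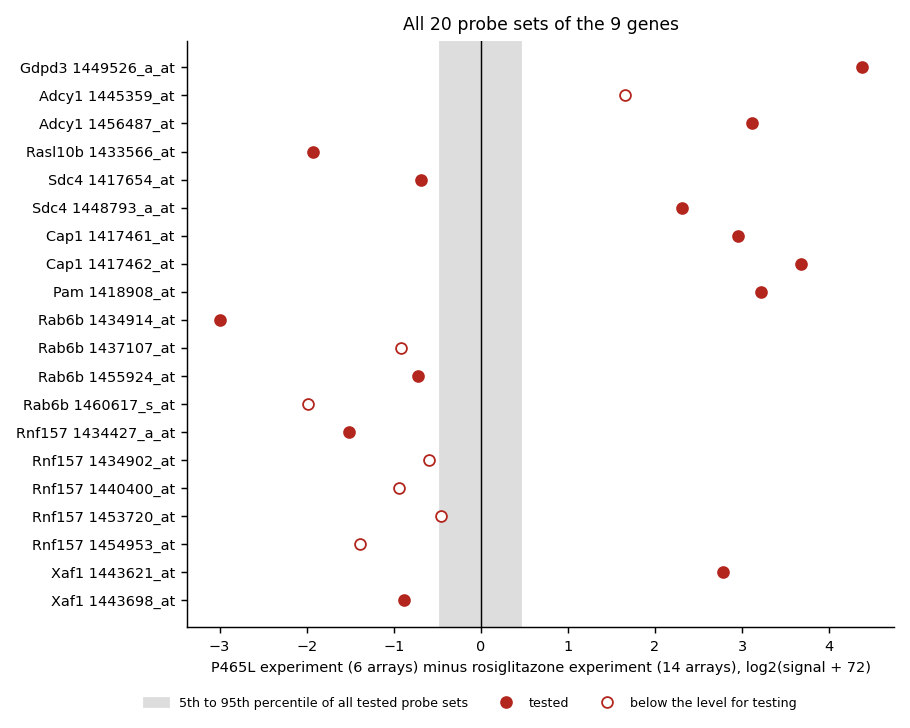
Difference between the experiments (log2 of signal plus 72, mean of 6 arrays of the P465L experiment minus mean of 14 of the rosiglitazone experiment) for all 20 probe sets of the 9 genes. Filled points were tested, open points were too dim, and the grey band is the 5th to 95th percentile of all tested probe sets, from -0.47 to 0.46. Sdc4 and Xaf1 each have points on both sides of 0.

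The largest gap belonged to Gdpd3 (chromosome 7, 126766414 to 126775645 in GRCm38), the lysophospholipid enzyme. Its signal (1449526_a_at) was 4514, 11208 and 5233 in the wild-type littermates and 5424, 5160 and 5221 in P465L mice. In the rosiglitazone experiment it ran from 43.9 over a median of 260 to 499, with 257, 371 and 425 in the chow controls. Even the lowest pool of the P465L experiment was far above the highest pool of the other, and wild-type pool B was alone in its height. On the log2 scale the levels were 12.52 ± 0.47 (SD, n = 6) and 8.15 ± 0.71 (SD, n = 14), a difference of 4.38, rank 1 among all tested probe sets by size. Without wild-type pool B the difference was 4.19. The related phosphodiesterase genes Gdpd1 (0.39 and -0.15), Gdpd5 (0.01) and Gde1 (-0.07) differed by little and overlapped in every probe set tested. In the wider list of lysophosphatidic acid genes, Lpar6 (1428615_at) was without overlap, at 2521 to 3648 against 1633 to 2420 (0.56). It was 1 of 6 tested genes, taken by their brightest probe set.

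Adcy1 (chromosome 11, 7063433 to 7178506), the calcium-stimulated adenylyl cyclase, had a signal (1456487_at) of 8978, 7061 and 9850 in littermates and 7783, 7931 and 8877 in P465L mice. It ran from 719 over a median of 893 to 1224 in the rosiglitazone experiment, where the chow pools were at 889, 813 and 917. The groups within an experiment lay close together and the experiments far apart. The levels were 13.04 ± 0.17 (SD, n = 6) and 9.93 ± 0.22 (SD, n = 14), a difference of 3.11. The dimmer probe set of Adcy1 (1445359_at), too low to be tested, was at 238 to 524 and 5.5 to 389, so that its arrays overlapped, with a difference of 1.66 in the same direction. Among the other adenylyl cyclases, the 1 Adcy7 probe set 1420970_at (0.59) and the 1 Adcy9 probe set 1419811_at (-0.33) did not overlap between the experiments. The other probe sets of Adcy7 and Adcy9 overlapped, as did all tested probe sets of Adcy2, Adcy3, Adcy4, Adcy5 and Adcy6 (-0.64 to 0.42), and Adcy8 was too dim to be tested.

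Rasl10b (chromosome 11, 83409137 to 83421039), the Ras-like GTPase, went the other way. Its signal (1433566_at) was 351, 142 and 89.4 in littermates, 395, 68.1 and 235 in P465L mice, and 1284, 920 and 1206 in chow controls. The rosiglitazone experiment ran from 535 over a median of 893 to 1459, above every pool of the P465L experiment. The difference was -1.93, from 8.01 ± 0.72 (SD, n = 6) to 9.94 ± 0.39 (SD, n = 14), with a wide scatter among the dim pools. Its relative Rasl10a was too dim to be tested.

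Sdc4 (chromosome 2, 164424247 to 164443188), the cell-surface proteoglycan, had probe sets that disagreed. By 1448793_a_at the signal was 19826, 19810 and 17160 in littermates, 18999, 21168 and 20514 in P465L mice, and 2542 to 5595 with a median of 3853 in the rosiglitazone experiment. By 1417654_at it was 1710, 1174 and 1518 in littermates, 1124, 1173 and 1504 in P465L mice, and 1414 to 3304 with a median of 2313 in the rosiglitazone experiment. The first was higher in all P465L-experiment arrays and did not overlap, while the second was lower and overlapped with the pools on 10 mg/kg/day. The differences were 2.31 and -0.69. Within the 14 rosiglitazone-experiment arrays the correlation of the Sdc4 probe sets was 0.08 (Pearson's r), and within the other 6 arrays it was -0.23. The tested probe sets of the other syndecans, Sdc1, Sdc2 and Sdc3, lay between -0.39 and 0.11 and overlapped. Their dim probe sets were at 1.25 (Sdc1, 1448158_at), -0.68 (Sdc2, 1431474_at) and -0.35 (Sdc3, 1420853_at), with overlap.

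Cap1 (chromosome 4, 122859048 to 122886076), the actin-recycling protein, was bright in the P465L experiment by both of its probe sets. By 1417462_at the signal was 12443, 10917 and 11242 in littermates, 10052, 9453 and 11771 in P465L mice, and 1186, 1752 and 1364 in chow controls. By 1417461_at it was 16947, 12696 and 14512 in littermates, 12446, 11693 and 13110 in P465L mice, and 1791, 2534 and 2292 in chow controls. Neither probe set overlapped between the experiments. The differences were 3.68 and 2.95, ranks 2 and 7 by size. Within the rosiglitazone experiment the Cap1 probe sets had an r of 0.91 over 14 arrays, and within the other 0.85 over 6 arrays. Its paralogue Cap2 differed by 0.36 and 0.28, the first without overlap. Over the actin turnover list the median of each gene's brightest probe set was -0.05, and 0 of 11 tested genes were without overlap in it. Actb was at 0.06 in its brightest probe set and -0.88 in 1419734_at, both with overlap.

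**Figure D2:**
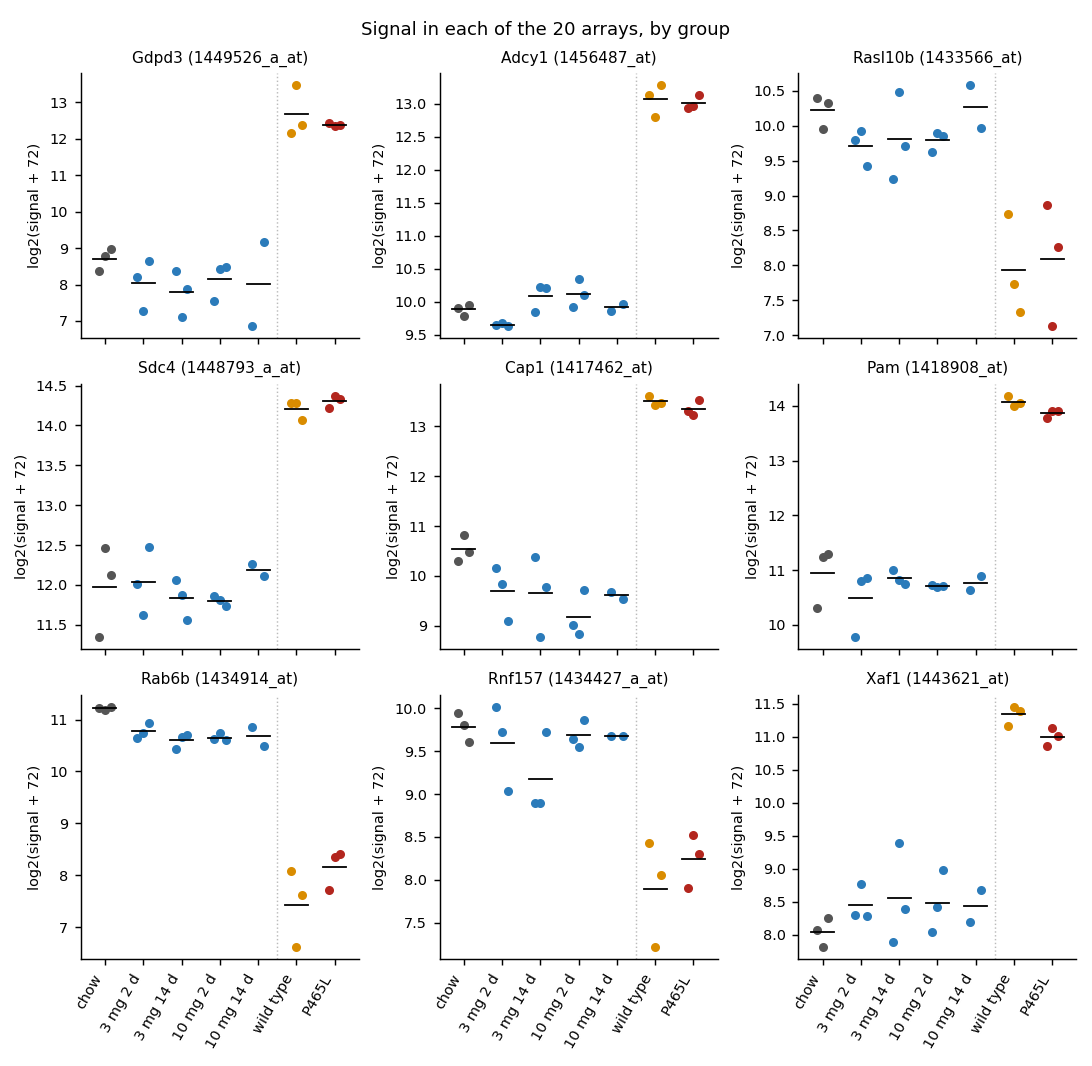
Signal of 1 probe set of each gene in the 20 arrays (log2 of signal plus 72; the axes differ between panels), by group, with a black line at each group mean. The dotted line parts the rosiglitazone experiment (left) from the P465L experiment (right). Gdpd3, Adcy1, Sdc4, Cap1, Pam and Xaf1 sit higher on the right, and Rasl10b, Rab6b and Rnf157 lower.

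Pam (chromosome 1, 97821091 to 98095853), the peptide-amidating enzyme, had a signal (1418908_at) of 18488, 16143 and 16929 in littermates and 13904, 15336 and 15331 in P465L mice. The chow pools were at 1185, 2347 and 2432, and the rosiglitazone experiment as a whole ran from 806 over a median of 1681 to 2432. The experiments were far apart, and chow pool A lay below the other chow pools. The levels were 13.97 ± 0.14 (SD, n = 6) and 10.75 ± 0.37 (SD, n = 14), a difference of 3.22. Among 7 tested genes of peptide hormone processing, taken by their brightest probe set, 2 were higher and 5 lower, with a median of -0.01, and Furin (-0.44) was the 1 without overlap. A dimmer probe set of Cpd, a carboxypeptidase (1418020_s_at), was also without overlap, at 1484 to 2421 against 788 to 1374 (0.63).

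Rab6b (chromosome 9, 103111667 to 103185276), the Golgi GTPase, was low in the P465L experiment. The signal of 1434914_at was 199, 25.4 and 124 in littermates, 137, 255 and 268 in P465L mice, and 2328, 2267 and 2371 in chow controls. The other 11 rosiglitazone-experiment pools lay below all 3 chow pools and above every pool of the P465L experiment. The difference was -3.0, or -2.76 without wild-type pool B. Another probe set, 1460617_s_at, too dim to be tested, also did not overlap, at 31.9 to 185 against 292 to 822. Its suffix marks probes that can match transcripts of several genes. The remaining probe sets, 1455924_at (-0.72) and 1437107_at (-0.92), were lower in the P465L experiment too, with overlap. Rab6a, its close relative, differed by -0.31, -0.26 and -0.06, with overlap in each probe set.

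Rnf157 (chromosome 11, 116336345 to 116413391), the ubiquitin ligase, had 1 probe set bright enough to be tested. The signal of 1434427_a_at was 273, 75.7 and 194 in littermates, 166, 295 and 243 in P465L mice, and 911, 822 and 712 in chow controls. The rosiglitazone experiment ran from 407 over a median of 748 to 966, above all pools of the P465L experiment. The difference was -1.51, or -1.34 without wild-type pool B. Its 4 dim probe sets were also lower, by -1.39, -0.94, -0.59 and -0.46, and all overlapped. Mgrn1, the relative of Rnf157, differed by -0.13 and -0.22.

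Xaf1 (chromosome 11, 72301461 to 72313733), the interferon-induced gene, again had probe sets that went opposite ways. By 1443621_at the signal was 2232, 2754 and 2626 in littermates, 1801, 2167 and 1992 in P465L mice, and 199, 153 and 233 in chow controls. By 1443698_at it was 1158, 1420 and 1112 in littermates, 783, 945 and 968 in P465L mice, and 2256, 1779 and 2129 in chow controls. Neither probe set overlapped, the first being higher and the second lower in every pool of the P465L experiment. The differences were 2.78 and -0.88, or 2.72 and -0.96 without wild-type pool B. Between the Xaf1 probe sets, r was -0.16 over the 14 arrays and 0.90 over the 6 arrays. Of 15 tested interferon response genes and Xiap relatives, taken by their brightest probe set, 6 were higher and 9 lower in the P465L experiment, with a median of -0.18, and Rtp4 (-0.53) was the 1 without overlap. Xiap itself differed by 0.20 in its brightest probe set, with overlap, and by 0.70 in 1456088_at, without overlap.

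**Figure D3:**
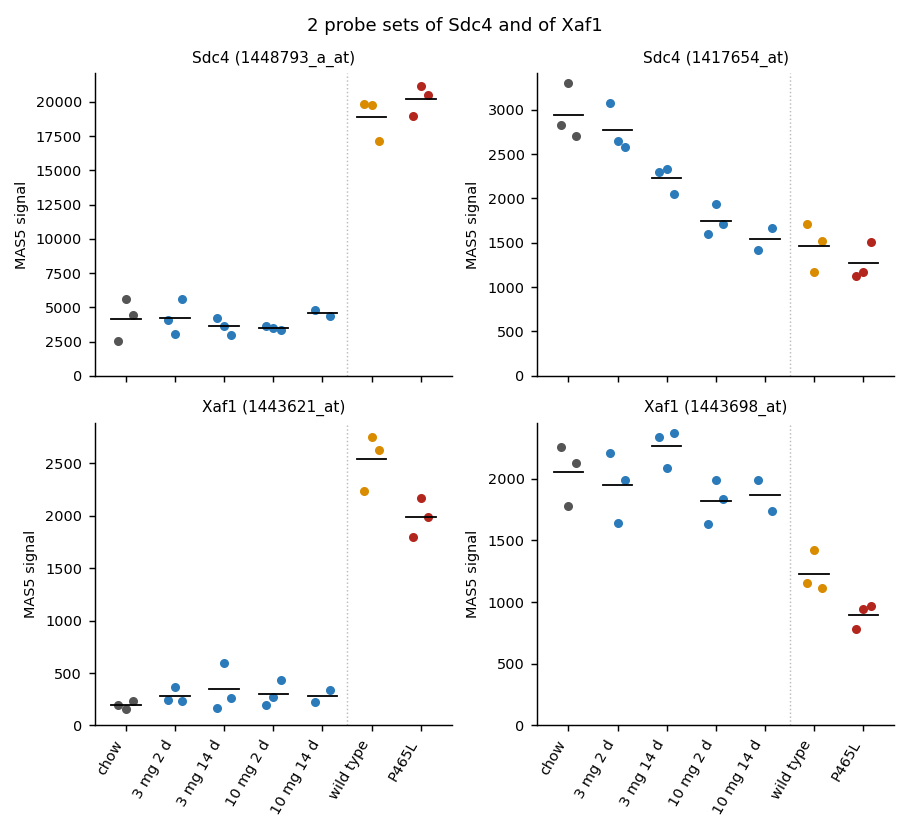
MAS5 signal (linear scale from 0) of both probe sets of Sdc4 (top) and of Xaf1 (bottom) in the 20 arrays by group, with a line at each group mean. On the left the 6 arrays of the P465L experiment lie above the 14 others, and on the right they lie lower, with overlap for Sdc4.

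The gap was also present between the untreated groups alone, wild-type littermates against chow controls, neither of which carried the mutation or the drug. The log2 difference there was 3.96 for Gdpd3, 3.19 for Adcy1 (1456487_at), 3.13 for Pam, 2.96 and 2.70 for Cap1 (1417462_at and 1417461_at), and 3.29 for Xaf1 (1443621_at). It was -3.79 for Rab6b (1434914_at), -2.29 for Rasl10b and -1.89 for Rnf157 (1434427_a_at). Sdc4 differed by 2.23 (1448793_a_at) and -0.98 (1417654_at), Xaf1 by 1443698_at by -0.71, and Rab6b by 1455924_at by -0.85. All 13 tested probe sets of the 9 genes were without overlap between these groups of 3, where 27% of all tested probe sets were. These are arrays from which the genes were chosen, so nothing is read from the count.

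Inside the P465L experiment, the comparison asked whether the mutation changed the aortic level of a gene. Limma was fitted to all 20 arrays and adjusted by Benjamini-Hochberg over 19370 probe sets. It called 0 of the 13 tested probe sets of the 9 genes. Of the 13, 2 had an unadjusted p under 0.05, as did 7.13% of all tested probe sets. Limma called 1 probe set in all, or 0.00516%, that of the fatty acid elongase Elovl3. It fell by 2.35 on the log2 scale (adjusted p = 0.0148), a call lost without wild-type pool A or B or P465L pool B or C. Log2 fold changes of the 13, P465L over littermates, ran from -0.72 to 0.72 with adjusted p between 0.653 and 0.947. Of these, 4 were above 0 and 9 below, with a median of -0.20, and the median over all tested probe sets was 0.01. A p above the threshold does not show equal levels.

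The smallest unadjusted p belonged to Xaf1 (1443698_at), at -0.42 on the log2 scale (SE 0.14, limma's adjusted p = 0.653). The P465L pools were at 783, 945 and 968 and the littermate pools at 1158, 1420 and 1112. By 1443621_at the log2 fold change of Xaf1 was -0.34 (limma's adjusted p = 0.817). Rab6b (1434914_at) had 0.72 (SE 0.26, adjusted p = 0.686 by limma), and its pools overlapped. The other tested probe set of Rab6b, 1455924_at, went the opposite way, at -0.72 (SE 0.41, adjusted p = 0.715 by limma), also with overlap. In this experiment 1434914_at lay below the brightness threshold, as did the tested probe sets of Rasl10b and Rnf157. Their values here compare dim signals. Without wild-type pool B the values for Rab6b were 0.31 (1434914_at) and -0.68 (1455924_at), and that for Xaf1 (1443698_at) was -0.32. For Gdpd3 it was -0.28 (SE 0.47), and 0.11 without that pool. Adcy1 (1456487_at) had -0.06 (SE 0.14), Pam -0.21 (SE 0.23) and Cap1 (1417462_at) -0.15 (SE 0.31). Each SE draws on the spread in all 7 groups, not in the pools of this experiment alone. The log2 SD of Pam was 0.1 in littermates, 0.08 in P465L mice and 0.56 in chow controls. For Cap1 (1417462_at) it was 0.1, 0.16 and 0.27, and for Adcy1 (1456487_at), the other way, 0.25, 0.1 and 0.08. Pparg, the mutated gene, had -0.07 (adjusted p = 0.982), and since a point mutation need not change the transcript level this does not check the labels.

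**Figure D4:**
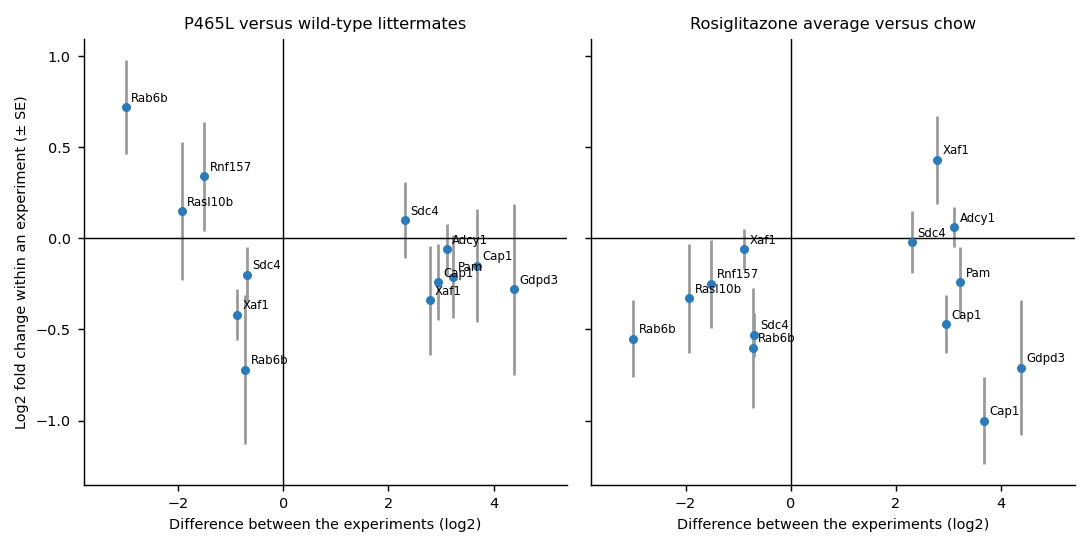
Log2 fold change within an experiment (vertical axis, bars ± SE from limma) against the difference between the experiments (horizontal axis, log2) for the 13 tested probe sets, for P465L against wild-type littermates (left) and for the rosiglitazone average against chow (right). The vertical values lie between -1.0 and 0.72, while the horizontal ones reach 4.38.

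The rosiglitazone experiment asked how activation of PPARγ changed these genes, with the 4 drug groups averaged and set against chow. One of the 13 tested probe sets, Sdc4 by 1417654_at, was called, lower with the drug (log2 fold change -0.53, SE 0.12, limma's adjusted p = 0.0435). Over all tested probe sets limma called 93, or 0.48%, of which 40 rose and 53 fell. Of the 13, 2 were above 0 and 11 below, with a median of -0.33 against -0.02 over all tested probe sets, and 4 had an unadjusted p under 0.05 (13.7% of all tested probe sets did).

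Sdc4 by 1417654_at stood at 2824, 3304 and 2710 in chow controls. After 3 mg/kg/day it was 3073, 2651 and 2583 at 2 days and 2295, 2331 and 2056 at 14 days. After 10 mg/kg/day it was 1604, 1939 and 1711 at 2 days and 1414 and 1670 at 14 days. All pools on 10 mg/kg/day lay below all pools on 3 mg/kg/day, and the pools at 3 mg/kg/day for 2 days overlapped with chow. The group mean was 2946 ± 315 (SD, n = 3) in chow and 1542 ± 182 (SD, n = 2) at the higher dose and longer time. The direct test of 10 against 3 mg/kg/day gave a log2 difference of -0.58 (SE 0.11), which did not pass after adjustment (adjusted p = 0.164 by limma). That of 14 against 2 days gave -0.24 (SE 0.11, adjusted p = 1 by limma).

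The other Sdc4 probe set, 1448793_a_at, did not show the fall, with -0.02 on the log2 scale (SE 0.17, limma's adjusted p = 0.974) for the average and 0.06 (SE 0.16, adjusted p = 0.91) for the dose. The call rested on the chow pools and on small margins: without chow pool A, B or C the adjusted p was 0.166, 0.23 and 0.149, and over 28 alternatives the call held in 12, with log2 values from -0.58 to -0.44. Summed endothelial markers were 35671 to 45502 in chow and 26714 to 36684 in treated pools. Of their 11 tested probe sets 1 was called, that of Pecam1 (1421287_a_at, log2 fold change -0.57, limma's adjusted p = 0.0269). The median over the 11 was -0.11. Summed fat cell markers were 64638 to 111389 in chow and 107270 to 250569 in treated pools. The part of these cell types in the fall of Sdc4 was not tested.

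Cap1 had the largest log2 fold change of the 13 under the drug. By 1417462_at the signal was 1186, 1752 and 1364 in chow, 1074, 846 and 474 after 3 mg/kg/day for 2 days, and 1266, 366 and 810 after 14 days. After 10 mg/kg/day it was 442, 383 and 768 at 2 days and 748 and 674 at 14 days. Of the 11 treated pools, 1 (1266) reached into the range of the chow pools. The log2 fold change was -1.0 (SE 0.24), short of the threshold (adjusted p = 0.0692 by limma), and that of 1417461_at was -0.47 (SE 0.16, adjusted p = 0.197). The first passed under 3 of 28 alternatives, where the adjusted p ran from 0.011 to 0.274. In the list of actin turnover genes, Pfn1, which charges actin monomers with ATP, was called and fell by 0.56 (1449018_at, adjusted p = 0.0295), 1 of 21 tested probe sets of that list.

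Rab6b (1434914_at) was at 2328, 2267 and 2371 in chow and at 1311 to 1894 in the 11 treated pools. The chow pools were tight and all above the treated ones. The log2 fold change was -0.55 (SE 0.21), and it did not pass the threshold (adjusted p = 0.232 by limma). The one alternative that called it used only the arrays of its own experiment (adjusted p = 0.0479). Gdpd3 had -0.71 (SE 0.37, adjusted p = 0.421) and Xaf1 by 1443621_at had 0.43 (SE 0.24, adjusted p = 0.437), both from signals below the brightness threshold in this experiment. Adcy1 (1456487_at) had 0.06 (SE 0.11, adjusted p = 0.873). Pam (-0.24, adjusted p = 0.618), Rasl10b (-0.33, adjusted p = 0.689) and Rnf157 (-0.25, adjusted p = 0.697) did not pass either.

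Dose, duration and their interaction gave no call among the 13, and none among all 19370 probe sets, a background of 0% in each. Of all tested probe sets, 2354 had an unadjusted p under 0.05 for dose, 807 for duration and 854 for the interaction. Among the 13, 1 did for each, namely Sdc4 (1417654_at) for dose and for duration and Adcy1 (1456487_at) for the interaction. Adcy1 was at 728, 749 and 719 after 3 mg/kg/day for 2 days and at 853, 1120 and 1107 after 14 days, while after 10 mg/kg/day it was at 898, 1224 and 1022 and then 854 and 930. The interaction was -0.65 (SE 0.21, adjusted p = 0.972 by limma).

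Genes known to respond to PPARγ were listed beside the 9 genes. Of 8 such genes, 5 were called in the rosiglitazone average, all higher with the drug and together by 6 of 14 tested probe sets. Of all tested probe sets 0.48% were called. The list was chosen with earlier results of these data known, so nothing is read from this count. The summed fat cell markers were 64638 to 111389 in chow and 107270 to 250569 in treated pools. They had a median log2 fold change of 0.79 and 0 calls among their 7 tested probe sets. Their part in the rise of the listed genes was not tested. Acaa1b, a peroxisomal thiolase, rose by 2.0 on the log2 scale (adjusted p = 0.0258), Rbp7, a retinol-binding protein, by 1.97 (adjusted p = 0.0207), and Pdk4, the pyruvate dehydrogenase kinase, by 1.44 (adjusted p = 0.0341). Angptl4, an inhibitor of lipoprotein lipase, rose by 1.26 (adjusted p = 0.0309). Fabp4, which binds fatty acids in adipocytes, rose by 0.94 (1451263_a_at, adjusted p = 0.0127) and 0.84 (1417023_a_at, adjusted p = 0.031). Between the experiments, 0 of these 8 genes were without overlap in their brightest probe set, and their median difference was 0.10. In the adenylyl cyclase list, Prkar2b, a regulatory subunit of the cAMP-dependent kinase, rose by 1.24 with the drug (adjusted p = 0.0368), 1 of 30 tested probe sets. The lists around Gdpd3, Pam, Sdc4, Rab6b, Rasl10b, Rnf157 and Xaf1 had 0 calls in any of the tested comparisons.

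Markers of other tissues and cells were summed in each array as a check on what the vessels held. All 7 tested skeletal muscle markers were higher in the P465L experiment, with a median of 1.52, but 0 were without overlap in their brightest probe set, and their summed signal was 3912 to 76656 against 2070 to 29252. The 3 tested liver markers were higher by a median of 0.67, with sums of 485 to 9734 and 290 to 2947. Liver sums were 2383, 9734 and 6272 in littermates and 1521, 485 and 656 in P465L mice. The P465L pools and wild-type pool A lay inside the range of the rosiglitazone experiment. Nerve and Schwann cell markers had sums of 41773 to 49487 and 40584 to 50604, and endothelial markers 31787 to 40501 and 26714 to 45502. Smooth muscle markers had sums of 363699 to 454668 and 344598 to 495461. Among 9 tested leukocyte markers, Ptprc was higher (1.04) and Cd74 (-0.93) and H2-Ab1 (-0.94) lower without overlap in their brightest probe sets, and their part in the gap of the 9 genes was not tested.

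Because the strain of the littermates was not given, genes known to differ between mouse strains were listed beside the 9. Nnt, a mitochondrial transhydrogenase disrupted in the C57BL/6J substrain, had a signal (1416105_at) of 5004, 6276 and 5580 in littermates, 5709, 5547 and 5643 in P465L mice, and 2936 to 3812 in the rosiglitazone experiment. Glo1, a glyoxalase with a known copy number difference between strains, was at 13682, 12473 and 9884 in littermates, 13431, 10006 and 10498 in P465L mice, and 5694 to 7948 in the rosiglitazone experiment (1424109_a_at). Wdfy1, an endosomal adaptor, was at 1836, 1738 and 1773, at 1773, 1981 and 1771, and at 621 to 1145 (1424749_at). For these probe sets the experiments did not overlap, with differences of 0.72, 0.78 and 1.0. Not every probe set of these genes behaved so: 1456573_x_at of Nnt (0.33), 1451240_a_at of Glo1 (0.63), and 1435588_at (0.11) and 1437358_at (0.26) of Wdfy1 overlapped, and Gabra2 was too dim to be tested. Taken by their brightest probe set, 1 of the 3 tested strain genes was without overlap, and the median difference was 0.33. Whether strain accounts for the gap of the 9 genes was not tested.

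**Figure D5:**
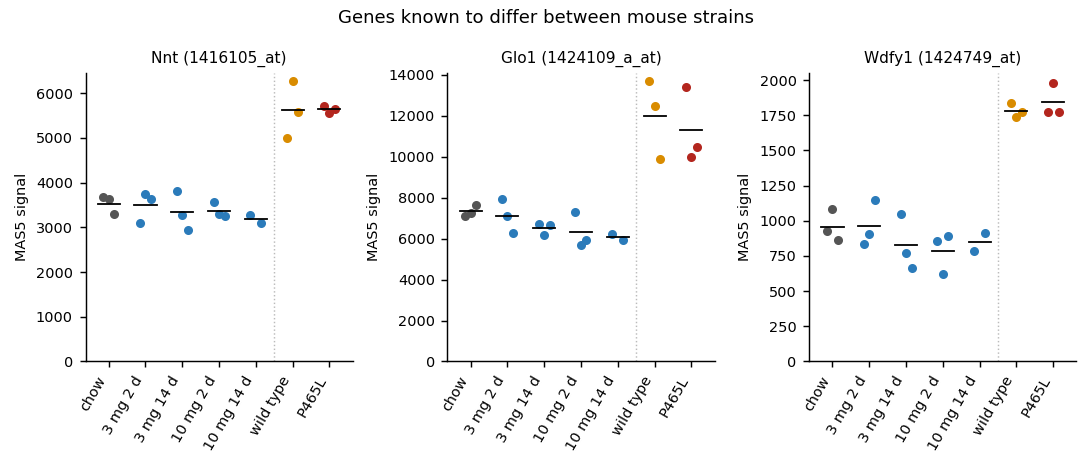
MAS5 signal (linear scale from 0) of Nnt, Glo1 and Wdfy1 in the 20 arrays by group, with a line at each group mean. These genes are known to differ between mouse strains. Each panel shows a probe set without overlap, while other probe sets of these genes overlapped. In each panel the 6 arrays of the P465L experiment, right of the dotted line, lie above the 14 of the rosiglitazone experiment, for Nnt at 5004 to 6276 against 2936 to 3812.

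Y-linked transcripts were present in both experiments, with Eif2s3y at 4444 to 5070 and 2706 to 4415 (1417210_at), without overlap and with a difference of 0.38, while Xist was too dim to be tested. Kdm5d differed by -0.16 and the tested probe sets of Uty by -0.12 to 0.79, all with overlap.

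By position, 4 of the 9 genes (44.4%) lay on chromosome 11, namely Adcy1, Xaf1, Rasl10b and Rnf157, as did 924 of 11058 tested genes with a position (8.36%). They are widely spaced along that chromosome, and the 9 genes are too few for more than this description. The nearest tested protein-coding neighbours, 2 on each side of each gene and 36 in all, ran from -0.51 to 0.68. Of these, 2 (5.56%) were without overlap, and the median absolute difference was 0.16 against 0.17 over all tested probe sets. Distances were taken between the lower genomic coordinates of the genes, not between their facing ends. They reached 7697 kb, for a neighbour of Pam. Next to Cap1, the lysosomal thioesterase Ppt1, 22 kb away, differed by 0.51 without overlap. Next to Gdpd3, Ypel3, 10 kb away, differed by -0.14 with overlap. The protease inhibitor gene Slpi, 70 kb from Sdc4, had the largest value among the neighbours (0.68), with overlap.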

How the data were processed

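Labelled RNA from 20 pools of aortas was hybridized to 20 arrays. The deposited intensity values, 1 linear signal per probe set, were made by the authors with MAS5, per the submitters' processing notes. The MAS5 version is not given in the sources used here. Deposited signals show that each array was scaled to a 2% trimmed mean of 1500, which assumes a like total signal in all arrays. Dim signals are noisy under MAS5. Probe sets with 1 symbol in the platform annotation (34945 of 45101) were analysed as log2 of signal plus 72, close to their 20th percentile (71.8). Those whose mean reached the 50th percentile, 19370 probe sets of 11076 genes, were tested.

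Group means were fitted over the 20 arrays in limma 3.58.1 in R 4.3.3 (lmFit, eBayes with trend, 13 residual and 7.5 prior degrees of freedom), two-sided, with Benjamini-Hochberg adjustment over all tested probe sets and calls at an adjusted p under 0.05. The script was tested on simulated data. Tables and figures used Python 3.11.15, numpy 2.4.6, pandas 2.3.3, scipy 1.17.1 and matplotlib 3.10.9. The arrays' number limits the precision.

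Named were all probe sets of the 9 genes, their paralogues, Pparg, list genes that were called, and strain and sex chromosome genes. The 5 most and 5 least similar genes over the arrays were also named. Some of the list genes without overlap, Rsad2, neighbours and Elovl3 were named after their values were seen. The 9 genes and the lists were chosen with earlier results of these data known. Positions and promoters are RefSeq's in GRCm38.p6, with 8 of the 9 genes in the promoter table. Alternatives were other offsets (20 and 200), no filter, 1 probe set per gene, quantile normalization, no variance trend, array weights, only the arrays of 1 experiment, a replicate block and leaving out each array.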

Additional observations from a re-analysis of the deposited data

How the results depend on the processing

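The gap of each of the 20 probe sets between the experiments kept its direction under every offset, the quantile normalization and each left-out array. For Gdpd3 it ran from 3.84 to 4.71 over these, and for Sdc4 from 2.26 to 2.35 (1448793_a_at) and from -0.76 to -0.64 (1417654_at). An offset of 20 moved 1445359_at of Adcy1 to 2.36 and 1460617_s_at of Rab6b to -2.49, while an offset of 200 moved the latter to -1.39, 1434914_at of Rab6b to -2.41 and 1443621_at of Xaf1 to 2.38. Dim probe sets thus depend on the offset by construction. The count of tested probe sets of the 9 genes without overlap was 11 whichever array was left out. Leaving out an array cannot create overlap, so this count could not fall, and nothing is read from it.

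Counts of calls were less stable, and apart from settings that test fewer or more probe sets or arrays the cause was not tested. For P465L against littermates, where 1 probe set was called, the count was 3 with no filter, 2 with 1 probe set per gene, 0 with no variance trend, 3 with array weights and 0 in the fit to its own experiment. Leaving out an array gave 0 to 2. For the rosiglitazone average, where 93 were called, the count was 34 with no filter, 48 with 1 probe set per gene, 21 with no variance trend, 447 with array weights and 56 in its own experiment. Leaving out an array gave 0 (without chow pool B) to 160 (without 2-day 3 mg/kg/day pool A), with 5 and 3 without chow pools A and C and 16 without 14-day 10 mg/kg/day pool B. Duration gave 13 calls in its own experiment, and 0 to 17 with an array left out, the 17 without wild-type pool B. Dose gave 0 to 2, the 2 without 14-day 10 mg/kg/day pool A, and the interaction 0 in each.

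Among the 13 tested probe sets of the 9 genes, the rosiglitazone average called 1; the count was 0 with no filter, 0 with 1 probe set per gene, 0 with no variance trend, 2 with array weights, 2 in its own experiment, and 0 to 2 with an array left out. Counts for P465L, dose, duration and the interaction were 0 to 0 with an array left out. The call of Sdc4 (1417654_at) was lost when any single chow pool was left out (adjusted p 0.149 to 0.23), without 14-day 10 mg/kg/day pool A (0.0852) or B (0.0578), and with any single 2-day 10 mg/kg/day pool left out (0.0513 to 0.0714). It was also lost without 14-day 3 mg/kg/day pool B (0.0579) or C (0.059), 2-day 3 mg/kg/day pool C (0.0604), P465L pool B (0.0614) or wild-type pool C (0.0543). It was lost with no filter (0.0691) and no variance trend (0.0717), and its adjusted p was 0.00958 with array weights. Cap1 (1417462_at) was called with array weights (0.011), without 14-day 3 mg/kg/day pool A (0.0283) and without 2-day 3 mg/kg/day pool A (0.0387).

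Pools shared letters across groups, but arrays with the same letter did not deviate together: r of their deviations ran from -0.151 to 0.276 over 3 pairs in the P465L experiment and from -0.282 to 0.279 over 26 in the other. With the letter as a replicate block, the rosiglitazone average called 116 probe sets, 0 of the 9 genes' (Sdc4 1417654_at at 0.0573), and P465L against littermates 1. The smallest signals limit what can be read: the 7 dim probe sets were not tested.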

Other observations

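Other genes followed the same split over the 20 arrays. The measure was Pearson's r with the mean profile of the 9 genes, each turned so that the P465L experiment is high. It reflects mostly the gap between the experiments, and it is given as a description. The highest r belonged to Ptprr, a receptor tyrosine phosphatase (0.966), Sparcl1, a matricellular protein (0.966), Cnot7, a deadenylase (0.964), Nnt (0.955) and Cuedc1 (0.955). Sparcl1 was at 54319 to 64003 in the P465L experiment and 20167 to 29428 in the rosiglitazone experiment (1416114_at). Ptprr was at 2131 to 3324 and 467 to 968 (1426047_a_at), and Cuedc1 at 1683 to 2212 and 340 to 741 (1451447_at). Sparcl1 was the brightest of these.

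The lowest r belonged to Cercam (-0.982), Stbd1, a glycogen-binding protein (-0.972), Shisa4 (-0.963), Hspb7, a small heat shock protein of muscle (-0.963), and Ang, a secreted ribonuclease (-0.957). Hspb7 was at 15931 to 20216 in the P465L experiment and 30308 to 45844 in the rosiglitazone experiment (1434927_at). Stbd1 was at 4436 to 6094 and 10212 to 15241 (1434442_at), and Ang at 3204 to 4094 and 6532 to 9376 (1438936_s_at). These differences, between -1.23 and -0.75 on the log2 scale, were smaller than those of Rab6b (1434914_at) and Rasl10b.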
